A study of Mus musculus with 4 samples.

Results

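The miR-30 family was followed in mouse lung through its 5 guide strands mmu-miR-30a, mmu-miR-30b, mmu-miR-30c, mmu-miR-30d and mmu-miR-30e, written below without the mouse prefix. They were taken by name from the 750 microRNA (miRNA) assays, and all 5 were matched, each by 1 assay. Lung RNA was profiled by TaqMan quantitative PCR in adult and newborn mice kept for 72 h in 95% oxygen (hyperoxia) or in room air, with 1 library per group. The 4 groups are adult hyperoxia, adult room air, neonatal hyperoxia and neonatal room air. Adults were 2 months old, and the newborns entered the study on their first day and were 3 days old at collection. The labels give no strain, no genotype and no agent other than oxygen. The number of animals behind a library is not stated, and the nursing dams moved between both atmospheres. All 4 libraries come from right lung taken after the pulmonary artery was flushed. Without replicates, a difference between 2 libraries carries no test.

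A miRNA guides the Argonaute complex to messenger RNAs that pair with its seed, bases 2 to 8 from the 5′ end, and lowers their output. Members of the miR-30 family share 1 seed and are abundant in lung, kidney and heart. They are known for repressing Snai1, a driver of the mesenchymal state, and Ccn2 (Ctgf), a matrix-associated growth factor. Each mouse locus makes a pair of members as neighbours: Mir30a with Mir30c-2, Mir30b with Mir30d, and Mir30e with Mir30c-1. RefSeq places no other gene start between the partners of any of these 3 pairs. It places Mir30e and Mir30c-1 inside Nfyc, which encodes a subunit of the NF-Y transcription factor. Mir30e also lies within the span of another miRNA gene, Mir30f.

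RefSeq (GRCm38.p6) holds sequences for 3 of the 5 members. They are shown because the family is defined by the seed, in capitals, while its members differ beyond it.
miR-30a: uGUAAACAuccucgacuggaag
miR-30e: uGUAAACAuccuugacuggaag
miR-30c: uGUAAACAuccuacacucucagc
The miR-30a guide lies at chr1:23272274-23272295 (+) and the miR-30e guide at chr4:120772660-120772681 (-). miR-30a and miR-30e differ by 1 base, C13U, counted from the 5′ end with miR-30a first. Both share their first 12 bases with miR-30c and part from it after that.

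miR-30c is made at 2 loci, and its hairpins are shown because 1 assay reads both. Capitals mark the guide strand, which is the same in each.
Mir30c-2: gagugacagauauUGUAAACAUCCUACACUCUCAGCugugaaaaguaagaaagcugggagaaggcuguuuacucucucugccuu
Mir30c-1: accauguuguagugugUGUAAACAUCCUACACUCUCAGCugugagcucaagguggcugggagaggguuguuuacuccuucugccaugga
These hairpins lie at chr1:23291701-23291784 (+) and chr4:120769534-120769622 (-). A miR-30c value is therefore the sum of what the Mir30a and the Mir30e neighbourhoods produce. Only the passenger strands, from the other side of the hairpin, tell the loci apart, and their seeds are in capitals here.
miR-30c-2*: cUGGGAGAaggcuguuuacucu
miR-30c-1*: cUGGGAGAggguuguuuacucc
The miR-30c-1* and miR-30c-2* assays crossed no threshold in any of the 4 libraries (a threshold cycle, Ct, of 40 in each), so the share of each locus in miR-30c was not measured.

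Levels are log2 values against the small nucleolar RNA snoRNA202 of the same card, so that a higher value means more RNA and a difference of 1 is 2-fold at perfect amplification. All 5 members sit on the first of 2 cards, miR-30b, miR-30c and miR-30d side by side in row B and miR-30a and miR-30e side by side in row P. Every member was measured early, with Ct values between 12.5 and 18.6. Levels are compared between libraries, not between assays, whose amplification differs. From 4 control RNAs read on both cards came a technical SD for each comparison: 0.26 log2 for oxygen in neonates, 0.33 for oxygen in adults, 0.65 for age in room air and 0.95 for age in hyperoxia. The age SDs hold a large gap of U6 between cards (-1.52 and -2.32 log2). Between 468 and 507 assays per library were detected (Ct of 35 or below). All 7 matched epithelial markers, both matched endothelial ones (miR-126-5p and miR-218) and all 4 leukocyte markers were detected in every library. The liver miRNA miR-122 had a Ct of 28.3 in adult hyperoxia, 32.8 in adult room air, 27.6 in neonatal hyperoxia and 36.0 in neonatal room air, later in room air at both ages.

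miR-30a and miR-30d separated the adult from the neonatal libraries with snoRNA202, and the other 3 members did so less or not at all. With U6, mean centring, snoRNA135 and snoRNA202 together, or each card centred on its median, all 5 members were higher in adults in both atmospheres. miR-30a, which represses the autophagy gene BECN1 in human cells, stood at -0.58 in adult hyperoxia and -0.54 in adult room air, against -1.47 in neonatal hyperoxia and -1.43 in neonatal room air. Both adult levels lay above both neonatal ones, and within an age the libraries differed by 0.04 log2 or less. miR-30d stood at -3.56 in adult hyperoxia and -2.995 in adult room air, against -4.37 in neonatal hyperoxia and -4.50 in neonatal room air. Again both adult libraries were higher, with adult room air at the top. How many of all assays separate the ages in this way is not given here. In the limma model described below, 51.2% of 426 assays had an unadjusted p under 0.05 for age.

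miR-30b, the partner of miR-30d, stood at -0.11 in adult hyperoxia, 0.49 in adult room air, -0.17 in neonatal hyperoxia and -0.08 in neonatal room air. Its adult room air library was high, and the other 3 lay close together. miR-30c, which represses Ccn2 in rat heart cells, stood at 0.38, 0.50, 0.38 and 0.29 in adult hyperoxia, adult room air, neonatal hyperoxia and neonatal room air. Its whole range of 0.21 log2 is below each technical SD, so no order of its 4 libraries is resolved. miR-30e stood at -1.61 in adult hyperoxia, -1.37 in adult room air, -1.59 in neonatal hyperoxia and -1.74 in neonatal room air. Its range was 0.38, and the ages overlapped. Adult room air was the highest library for each of the 5 members with snoRNA202, for 2 of them with U6 and for 0 with mean centring.

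**Figure D1:**
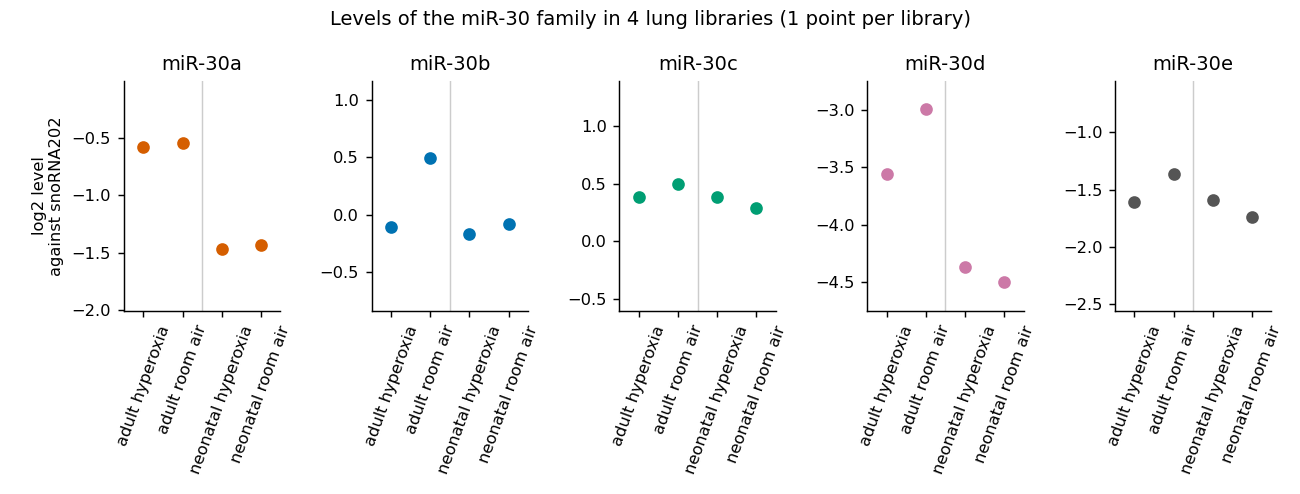
Each panel plots 1 member: the y axis is its log2 level against snoRNA202 of the first card and each point is 1 library, with adult libraries left of the grey line. Panels span the same 2 log2 units with their own offset. The adult points of miR-30a and miR-30d lie above the neonatal ones, while the points of miR-30c lie within 0.21.

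The first question was how the family differs between adult and newborn lung. In room air all 5 members were above 0 for adult minus neonatal: miR-30d at 1.51 log2 (2.84-fold), miR-30a at 0.89 (1.85-fold), miR-30b at 0.58, miR-30e at 0.38 and miR-30c at 0.21. Of the 5, 1 (miR-30d) was at least 2-fold higher and 0 were 2-fold lower, where over all 435 assays 16.6% were 2-fold higher and 43% 2-fold lower. The family median was 0.58, against -0.57 over all assays and -0.39 over the 240 assays of the first card. miR-30d exceeded 90.4% of those first-card assays, miR-30a 80.4%, miR-30b 72.1%, miR-30e 66.7% and miR-30c 63.8%. The differences of miR-30a and miR-30d exceeded the technical SD of 0.65, and that of miR-30d also exceeded 2 SDs (1.30).

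Between the hyperoxia libraries miR-30a was 0.89 log2 higher in the adult (1.85-fold) and miR-30d 0.81 higher (1.76-fold). The other members were near 0, with miR-30b at 0.06, miR-30c at 0.001 and miR-30e at -0.02. None of the 5 was 2-fold higher or lower, where 10.9% of 450 assays were higher and 49.3% lower. No member passed the technical SD of 0.95. The family median of 0.06 stood beside -0.98 over all assays and -0.95 over the first card, so in this comparison too the members lay on the upper side of their card: miR-30a exceeded 88.9% of 253 assays and miR-30e, the lowest of the 5, exceeded 71.5%.

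**Figure D2:**
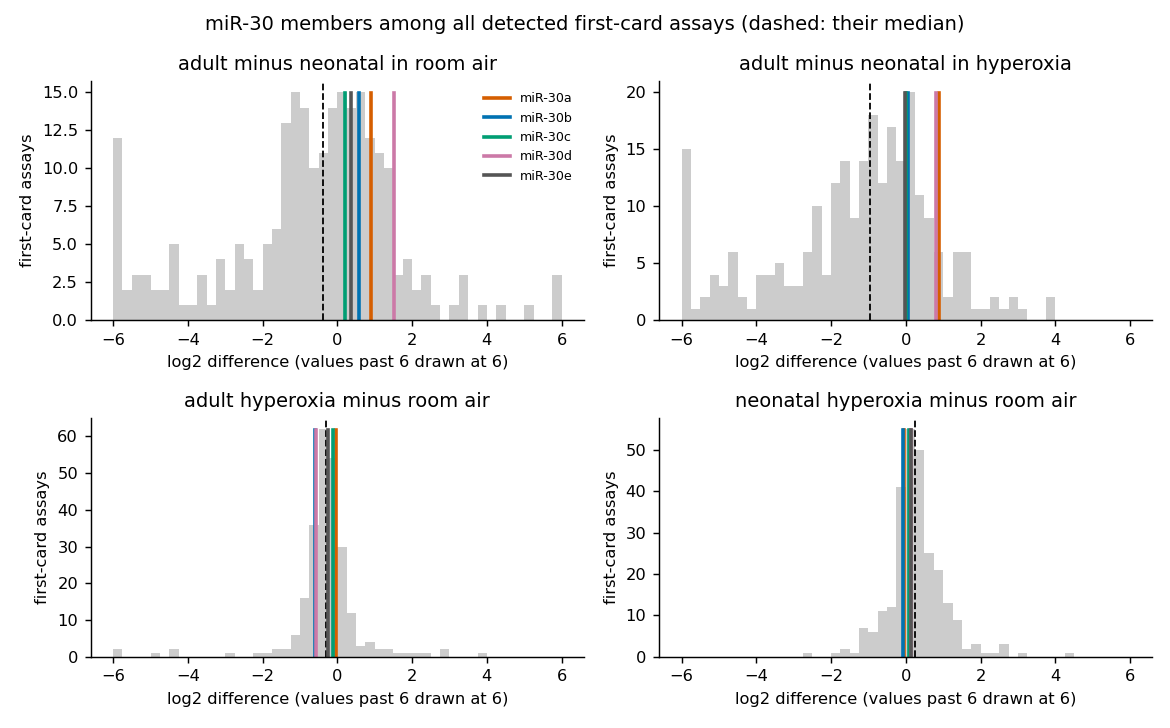
Grey bars count the detected first-card assays by log2 difference (x axis, snoRNA202 scale) in each of 4 comparisons, the dashed line is their median and coloured lines are the 5 members. In both age panels all 5 lines lie right of the dashed line, and in the oxygen panels they lie close to it.

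An additive model of age and oxygen (limma, 426 assays detected in all 4 libraries, Benjamini-Hochberg adjustment) used both pairs of libraries together. It called 0 of the 5 members for age, where 5.63% of all assays were called higher in adults and 30% lower. At an unadjusted p under 0.05 it had 1 member, miR-30d, beside 51.2% of all assays. The fitted age effect of miR-30d was 1.16 ± 0.35 log2 (SE; 95% interval 0.07 to 2.26; adjusted p = 0.0866) and that of miR-30a 0.89 ± 0.30 (-0.03 to 1.803; adjusted p = 0.101). Both members were higher in 2 of 2 adult libraries. The intervals of the others reach from below 0 to above 1: miR-30b at 0.32 (-0.70 to 1.34), miR-30e at 0.18 (-0.80 to 1.16) and miR-30c at 0.11 (-0.83 to 1.04). The median of the 5 fitted effects was 0.32, against -0.84 over all 426 assays.

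The sizes and calls depend on the reference RNA. Centring each card on its median moved the median of all room air age differences by 0.98 log2 and U6 moved it by 2.03. The deposited reference, 1 of the 6 used, gives the members the same values as snoRNA202. All 5 fitted age effects lay above 0 under each of the 6 references. With U6 they ran from 2.92 (miR-30c) to 3.97 (miR-30d) and with each card centred from 1.51 to 2.56, and limma called all 5 higher in adults under both, beside 46% of all assays with U6 and 31.9% with each card centred. With mean centring, and with snoRNA135 and snoRNA202 together, it called miR-30a and miR-30d of the 5, beside 23.2% and 11.7% of all assays called higher. With the deposited reference it called 0 of 5, beside 4.46% of all assays. Without oxygen in the model it called the same pair on the snoRNA202 scale, miR-30a at an adjusted p of 0.0428 and miR-30d at 0.0434, beside 9.15% of all assays called higher. All 5 members share a card, so a change of reference shifts them by the same amount and leaves their order as it is.

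**Figure D3:**
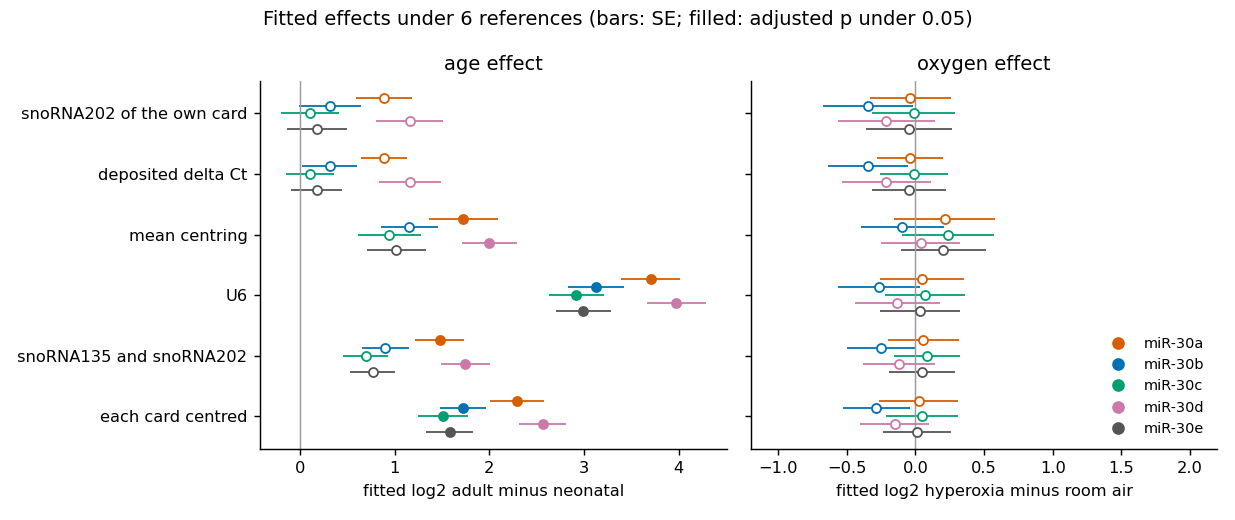
The x axis is the fitted log2 age effect (left, adult minus neonatal) or oxygen effect (right, hyperoxia minus room air) of each member under 6 references, with bars for the SE and filled points for an adjusted p under 0.05. The age effects of the 5 members shift together with the reference, from 0.11 for miR-30c with snoRNA202 to 3.97 for miR-30d with U6, and no oxygen effect is filled.

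The next question was whether members made at 1 locus move together. Both assays of each pair share a card, so the gap between them within a library does not depend on any reference RNA. The miR-30c assay sums 2 loci, so only miR-30b minus miR-30d compares the members of 1 locus alone. The gap miR-30a minus miR-30c was -0.96 in adult hyperoxia and -1.04 in adult room air, against -1.85 in neonatal hyperoxia and -1.72 in neonatal room air. The adult gaps lay apart from the neonatal ones: miR-30a gained on miR-30c by 0.68 log2 with age in room air and by 0.89 in hyperoxia. The gap miR-30b minus miR-30d was 3.45 in adult hyperoxia and 3.49 in adult room air, against 4.20 in neonatal hyperoxia and 4.42 in neonatal room air. Here too the ages did not overlap, with a change of -0.93 log2 in room air and -0.76 in hyperoxia, so that miR-30d gained on its neighbour miR-30b. In size, the room air changes of both gaps exceeded the technical SD of 0.65 but not 2 SDs (1.30). Their hyperoxia changes were below the technical SD of 0.95. That SD compares controls between cards and against snoRNA202, so it is not a direct measure of error for a gap within 1 card.

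At the third locus the gap miR-30e minus miR-30c was -1.99 in adult hyperoxia, -1.87 in adult room air, -1.97 in neonatal hyperoxia and -2.03 in neonatal room air, a spread of 0.16 log2 over all 4. miR-30c and miR-30e were also the closest of the 10 pairs of members in pattern (root mean square difference of centred levels 0.06), and miR-30c and miR-30d the farthest (0.55). Across loci, miR-30a and miR-30d differed by 0.24. That is less than miR-30d differed from its locus partner miR-30b (0.43). It is also less than miR-30a differed from miR-30c (0.39), whose assay does not read the Mir30c-2 locus alone. miR-30a and miR-30e, which differ by the single base given above, differed by 0.37. Whether each of these 2 assays reads only its own guide was not tested. Oxygen moved the 3 gaps little, by -0.22 to 0.06 in neonates and by -0.13 to 0.08 in adults.

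The age change of each gap was also fitted with limma by using 1 partner as the reference for the 235 other first-card assays, a test added after the data were seen. Against miR-30c, miR-30a was at 0.78 ± 0.23 log2 (SE; 95% interval 0.05 to 1.52; adjusted p = 0.0746) and was not called, where 43% of assays were. miR-30e was at 0.07 against miR-30c (-0.65 to 0.80; adjusted p = 0.799), an interval that does not show the pair to be equal. Against miR-30d, miR-30b was fitted lower in adults, at -0.84 ± 0.38 (-1.61 to -0.08; adjusted p = 0.0408). In that fit 80.9% of assays were called. It has 30.2 prior degrees of freedom, against 1.90 with miR-30c as reference, so the 2 fits are not equally strict. Each fit sets all assays against the same partner, so they all share that partner's own departure from the additive model. This sharing makes the assays look alike in spread and can raise the prior degrees of freedom. The adjusted p against miR-30d is therefore not firm support for a difference.

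**Figure D4:**
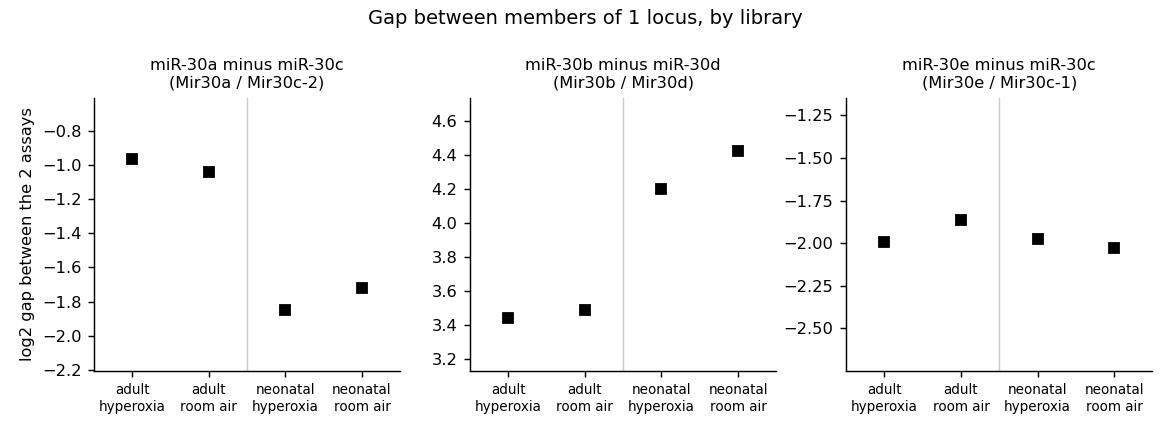
Each panel plots the log2 gap between the assays of 2 members that share a locus, 1 point per library. The miR-30c assay sums 2 loci. Adult libraries are left of the grey line, and each panel has the same 1.6 log2 height. The adult and neonatal gaps separate for miR-30a minus miR-30c and for miR-30b minus miR-30d, and all 4 gaps of miR-30e minus miR-30c lie within 0.16.

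The response to oxygen was small for every member. In neonates hyperoxia minus room air was 0.15 log2 for miR-30e, 0.13 for miR-30d, 0.09 for miR-30c, -0.04 for miR-30a and -0.09 for miR-30b. None exceeded the technical SD of 0.26. In adults all 5 lay below 0: miR-30b at -0.60, miR-30d at -0.56, miR-30e at -0.24, miR-30c at -0.12 and miR-30a at -0.04. miR-30b and miR-30d, the partners of 1 locus, exceeded the technical SD of 0.33 and none exceeded 2 SDs (0.66). These directions depend on the reference: in adults all 5 lay above 0 with mean centring, and 3 of 5 with U6, with both snoRNAs and with each card centred. In neonates 3 of 5 lay above 0 with snoRNA202 and 0 with mean centring or each card centred. The adult family median of -0.24 equals the median of all 448 assays to 2 decimals, and it was 0.43 with mean centring. No member changed 2-fold at either age. Over all assays 13.6% were 2-fold higher and 8.53% lower in neonates, and 3.79% and 8.26% in adults. limma called 0 of 5 members and 0 of 426 assays for oxygen, with 0 members and 13 assays at an unadjusted p under 0.05. The fitted effects ran from -0.35 ± 0.33 for miR-30b (95% interval -1.36 to 0.67) to -0.01 ± 0.30 for miR-30c (-0.94 to 0.92), and the intervals of all 5 reach at least 0.67 above 0 and 0.94 below it.

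The passenger strands, which the choice of members did not use, are read by 6 assays on the second card. Those of Mir30a and Mir30e are almost 1 sequence, and are shown for that.
miR-30a*: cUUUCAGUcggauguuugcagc
miR-30e*: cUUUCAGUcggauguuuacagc
They differ by G18A with miR-30a* first, and whether each assay reads only its own strand was not tested. Their levels followed each other: miR-30a* stood at -0.20 in adult hyperoxia and -0.13 in adult room air, against -0.53 in neonatal hyperoxia and -0.49 in neonatal room air. miR-30e* stood at -0.32 and -0.41 in the adult libraries, in the same order, against -0.68 and -0.66 in the neonatal ones. For both, the 2 adult libraries were the higher ones, by 0.26 to 0.36 log2 within an atmosphere, and limma called neither with snoRNA202 (adjusted p = 0.411 and 0.457). It called both higher in adults under 3 of the 6 references, with miR-30a* at 1.77 and miR-30e* at 1.74 under mean centring, 1.24 and 1.20 with U6, and 1.30 and 1.26 with each card centred. Of all assays, 23.2%, 46% and 31.9% were called higher under these 3 references, in the same order. The guides of these hairpins had fitted age effects of 0.89 for miR-30a and 0.18 for miR-30e with snoRNA202. Under the same 3 references, in that order, miR-30a was at 1.73, 3.70 and 2.29 and miR-30e at 1.02, 2.99 and 1.58.

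The passenger strands of Mir30b and Mir30d showed larger age differences. miR-30b* stood at -13.5 in adult hyperoxia and -13.6 in adult room air, against -15.2 in neonatal hyperoxia and -15.9 in neonatal room air. It was read late, at a Ct of 27.3 in both adult libraries against 29.8 and 31.2 in the neonatal ones. It rose with age by 1.94 ± 0.34 log2 (limma, adjusted p = 0.0347) in 2 of 2 adult libraries, and was called higher under all 6 references (1.83 to 3.37). The share of all assays called higher ran from 4.46% with the deposited reference to 46% with U6, and was 5.63% with snoRNA202. The assay named for rat miR-30d* stood at -9.49 in adult hyperoxia and -9.54 in adult room air, against -10.9 in neonatal hyperoxia and -10.5 in neonatal room air, with a fitted age effect of 1.16 ± 0.32 (limma, adjusted p = 0.0717). It was called higher under 4 of the 6 references, from 1.35 with both snoRNAs to 2.59 with mean centring. Under these 4, between 11.7% (both snoRNAs) and 46% (U6) of all assays were called higher. Guides and passenger strands sit on different cards, so their standing to each other depends on the reference. For Mir30d the passenger strand was at 1.16 and the guide at 1.16 with snoRNA202, and at 2.05 and 3.97 with U6. For Mir30b the passenger strand was at 1.94 and the guide at 0.32 with snoRNA202, and at 2.83 and 3.13 with U6. The difference between their effects was not tested.

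Among the 355 other assays that crossed by Ct 30 in each library, those closest to the family's mean pattern were miR-1839-5p (root mean square difference 0.014 log2 over the 4 libraries), miR-185 (0.020), miR-690 (0.083), miR-466g (0.10) and miR-143 (0.10). miR-185 and miR-143 are on the first card. The members themselves lay 0.16 (miR-30b) to 0.33 (miR-30d) from that mean, and 21 to 72 of the other assays lay nearer to it than a given member did. The mean pattern thus describes no single member closely. Of 1679 mature mouse miRNAs in the RefSeq table, 4 carry the GUAAACA seed, and the only one of these outside the family is miR-384-5p, looked up after the data were seen. miR-384-5p stood at -13.0 in adult hyperoxia and -13.4 in adult room air, against -12.1 in neonatal hyperoxia and -12.8 in neonatal room air. Its adult minus neonatal differences of -0.69 in room air and -0.83 in hyperoxia are opposite in sign to those of miR-30a and miR-30d with snoRNA202, but turn to 1.96 and 2.14 with U6 and to 0.46 and 0.83 with each card centred.

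Cell type markers moved between the ages as well. In whole lung RNA, fewer cells of a type and less RNA per cell cannot be told apart. For adult minus neonatal with snoRNA202, the median of 7 epithelial markers was -0.06 log2 in room air and -1.63 in hyperoxia. In room air these went both ways, from 0.84 for miR-200c to -1.53 for miR-182. The median of 3 mesenchymal markers was -2.42 and -2.13. The median of 4 leukocyte markers was 0.98 and 0.25, with miR-223 at -0.03 and -0.47. That of the smooth muscle pair miR-143 and miR-145 was 0.96 and 0.56. The endothelial markers went opposite ways, with miR-126-5p at 0.75 and 0.39 and miR-218 at -1.81 and -1.89. Over all assays the median was -0.57 and -0.98. The marker values depend on the reference as well: on the same scale U6 of the first card stood at -2.65 and -2.98. The part of the marker shifts in the miR-30 values was not tested.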

How the data were processed

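Per the labels' protocols, Megaplex primers (sets A and B) served for reverse transcription and for preamplification, before TaqMan assays on 2 cards of 384 wells. Per the file headers, the authors deposited Ct values and Ct minus the Ct of snoRNA202, both on a log2 scale. Software and thresholds: not given in the sources used here. Wells without a crossing hold 40. In the adult room air library the deposited values of the second card use the first card's snoRNA202, so levels were recomputed as the Ct of the own card's snoRNA202 minus the Ct of the assay. This changed no member's value.

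Assays with a Ct of 35 or below were compared. limma 3.58.1 (R 4.3.3, lmFit and eBayes) fitted age and oxygen additively, with 1 residual and 2.16 prior degrees of freedom, Benjamini-Hochberg adjustment over 426 assays and a threshold of 0.05. The model takes the oxygen effect as equal at both ages. It was also run on simulated data, whose planted oxygen effects were equal at both ages, so that run cannot test this assumption. No label says that libraries are separate animals, and p-values then reflect only the spread of these 4 samples, which may be technical. The technical SD is the root mean square gap between cards of U6, snoRNA135, U87 and Y1, divided by the square root of 2. Named are the members, their passenger strands, the controls and the 5 nearest assays in pattern. Members, lists and tests were chosen with earlier results of these data known. Alternatives were 5 other references, Ct limits of 32 or none, and 1 factor alone. Sequences are from RefSeq.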

Additional observations from a re-analysis of the deposited data

Results flagged for a closer look

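With snoRNA202 as reference, 3 members had oxygen differences of opposite sign at the 2 ages, below 0 in adults and above 0 in neonates, and 1 member had age differences of opposite sign in the 2 atmospheres. The adult oxygen difference minus the neonatal one was -0.69 log2 for miR-30d (-0.56 in adults, 0.13 in neonates), -0.39 for miR-30e (-0.24 in adults, 0.15 in neonates) and -0.21 for miR-30c (-0.12 in adults, 0.09 in neonates). For miR-30e the age difference was -0.02 in hyperoxia and 0.38 in room air, which is the same gap of -0.39. These signs depend on the reference. Under mean centring the oxygen differences turn round, to 0.11 in adults and -0.03 in neonates for miR-30d, 0.43 and -0.02 for miR-30e and 0.55 and -0.07 for miR-30c. The miR-30e age differences lie above 0 in both atmospheres with U6, mean centring, both snoRNAs and each card centred. With 1 library on each side these differences were not tested. The medians of all assays, -0.24 for oxygen in adults and 0.13 in neonates, differ in the same direction.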

How the results depend on the processing

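The family median of adult minus neonatal room air, 0.58 log2 with snoRNA202, was 3.22 with U6 and 1.72 with each card centred. In hyperoxia 0.06 became 1.31 with mean centring, 3.04 with U6 and 1.72 with each card centred. The adult oxygen median was 0.43 with mean centring. limma called 0 members for age with snoRNA202, 2 with mean centring, 5 with U6, 2 with both snoRNAs, 5 with each card centred and 2 with 1 factor alone. Over all assays the same settings called 152, 176, 267, 162, 220 and 203 of 426 for age, and 78 of 750 were called without a Ct limit. Uncalled oxygen effects changed sign: under mean centring, U6, both snoRNAs and card centring in turn, miR-30a was at 0.213, 0.0448, 0.0578 and 0.024, miR-30c at 0.238, 0.0698, 0.0828 and 0.049, and miR-30e at 0.204, 0.0353, 0.0483 and 0.0145, while miR-30d was at 0.037 under mean centring alone. The age effect of miR-30b was -0.84 against miR-30d, a reference added later. The remaining medians stayed within the technical SD of their main value, and the remaining called counts were the same. The locus gaps could not move, because both assays of a gap share a card and the reference cancels. The cause of each shift was not tested. No paired analysis was possible because each group has 1 library, and leaving out a library leaves the model no residual degree of freedom. Depth in reads does not exist for this assay. All 5 members have early Ct values, miR-30b* does not.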
